A study of Sus scrofa with 22 samples.

Results

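The respiratory chain of the inner mitochondrial membrane was described here through the nuclear genes for its subunits in the small intestine of piglets given chemotherapy. The members were the genes whose pig symbol starts with NDUF, UQCR, ATP5, COX4, COX5, COX6, COX7 or COX8, or is SDHA, SDHB, SDHC, SDHD or CYC1. On the array, 99 of 43603 probes carried such a symbol and stood for 27 genes, each represented by its brightest probe. Of these, 26 were tested among 24761 genes in all. The 27th, COX8H, the muscle-type form of a cytochrome oxidase subunit, was well above background on 1 of 22 arrays and was not tested. Symbols are those of the pig gene tables used, so several ATP synthase genes appear under their older ATP5 names.

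Complex I takes electrons from NADH and complex II takes them from succinate, and both pass them on through ubiquinone to complex III. Cytochrome c carries the electrons from complex III to complex IV, cytochrome c oxidase, where oxygen is reduced. Complexes I, III and IV pump protons, and ATP synthase, also called complex V, uses the proton gradient to make ATP. A core of the subunits is encoded by mitochondrial DNA and made inside the organelle, whereas all members described here are made from nuclear genes and imported. Intestinal epithelium renews itself continuously and carries out energy-demanding nutrient transport.

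The 22 piglets were crossbred, specific pathogen-free animals of Large White × Danish Landrace stock, called 3 days old in the labels, and came from separate experiments on intestinal toxicity of chemotherapy. In one experiment 6 piglets received a single intravenous dose of doxorubicin (DOX), a topoisomerase II inhibitor, and 6 more served as untreated controls. The other experiment gave 5 piglets intravenous busulfan plus cyclophosphamide (BUCY), a pair of alkylating drugs, and 5 were untreated. All piglets had suckled the sow from birth, were caged singly, were anaesthetised and carried an orogastric tube and a jugular catheter. No source used here gives the dose, the time of sampling, the segment of small intestine or the litter, and the labels do not say whether the stated age is that at treatment or at sampling.

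Each piglet's total RNA, in the Cy5 channel, was set against a pool of all samples in the Cy3 channel, with no dye swap. All values below are therefore log2 ratios of a piglet to the pool, and a difference of 1 on this scale is a doubling. The arrays lay on 7 slides scanned on 3 days, and 59.7 to 72.5% of probes were well above background, with no saturated spots. With each array only centred on its median, the median over all tested genes was -0.12 and -0.35 in BUCY-treated piglets 2 and 3. In the rest of their group it lay between -0.03 and 0.07. In the deposited values the members' medians of these piglets were -0.01 and -0.23, against -0.17 to 0.09 in the rest. The median Cy5 signal of array 3, 88, was the lowest of the 22, which reached 210. Each main count is also given without BUCY-treated piglets 2 and 3. The labelled tissue was checked on its markers, and all 11 measured enterocyte markers were well above background on all 22 arrays. The tissue was measured in bulk, so fewer cells of a type and less RNA per cell cannot be told apart in any value below.

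After BUCY, 12 of the 26 tested members rose in the deposited values and 0 fell, whereas under median centring of each array without loess the median member was lower instead. The 12 comprised 5 subunits of ATP synthase, 4 of complex IV, 2 of complex I and 1 of complex III, with folds between 1.31 for COX5B and 1.87 for ATP5I. A higher level after BUCY at an adjusted p under 0.05 was found for 8.72% of all tested genes, a lower one for 9.26% and a change in either direction for 18% (limma, Benjamini-Hochberg over all genes tested). The median log2 difference of the 26 members was 0.32, against 0.0039 for all tested genes, and 21 members lay above 0. At an unadjusted p under 0.05, 0 members were lower, where 16.3% of all genes were. For 10 members every treated piglet was higher than every untreated one, which held for 3.4% of all genes. Without BUCY-treated piglets 2 and 3 the same 12 members passed, at a median of 0.35 and a background of 4.6% of genes in either direction. The same 12 also passed with each single piglet of either experiment left out. Other settings ended some of these calls. ATP5G3, COX6A1 and NDUFB8 missed the threshold when the fit held only the groups compared. This left 9 calls, where 3.09% of all genes passed in either direction. With the mean of all probes of a gene, ATP5A1, COX6B and NDUFV2 missed it, which again left 9, at a share of 17.7%. With the Cy5 channel alone ATP5G3, COX5B and COX6B missed it and NDUFAF3 was gained, and COX6A1 missed it with the Agilent log ratio.

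**Figure D1:**
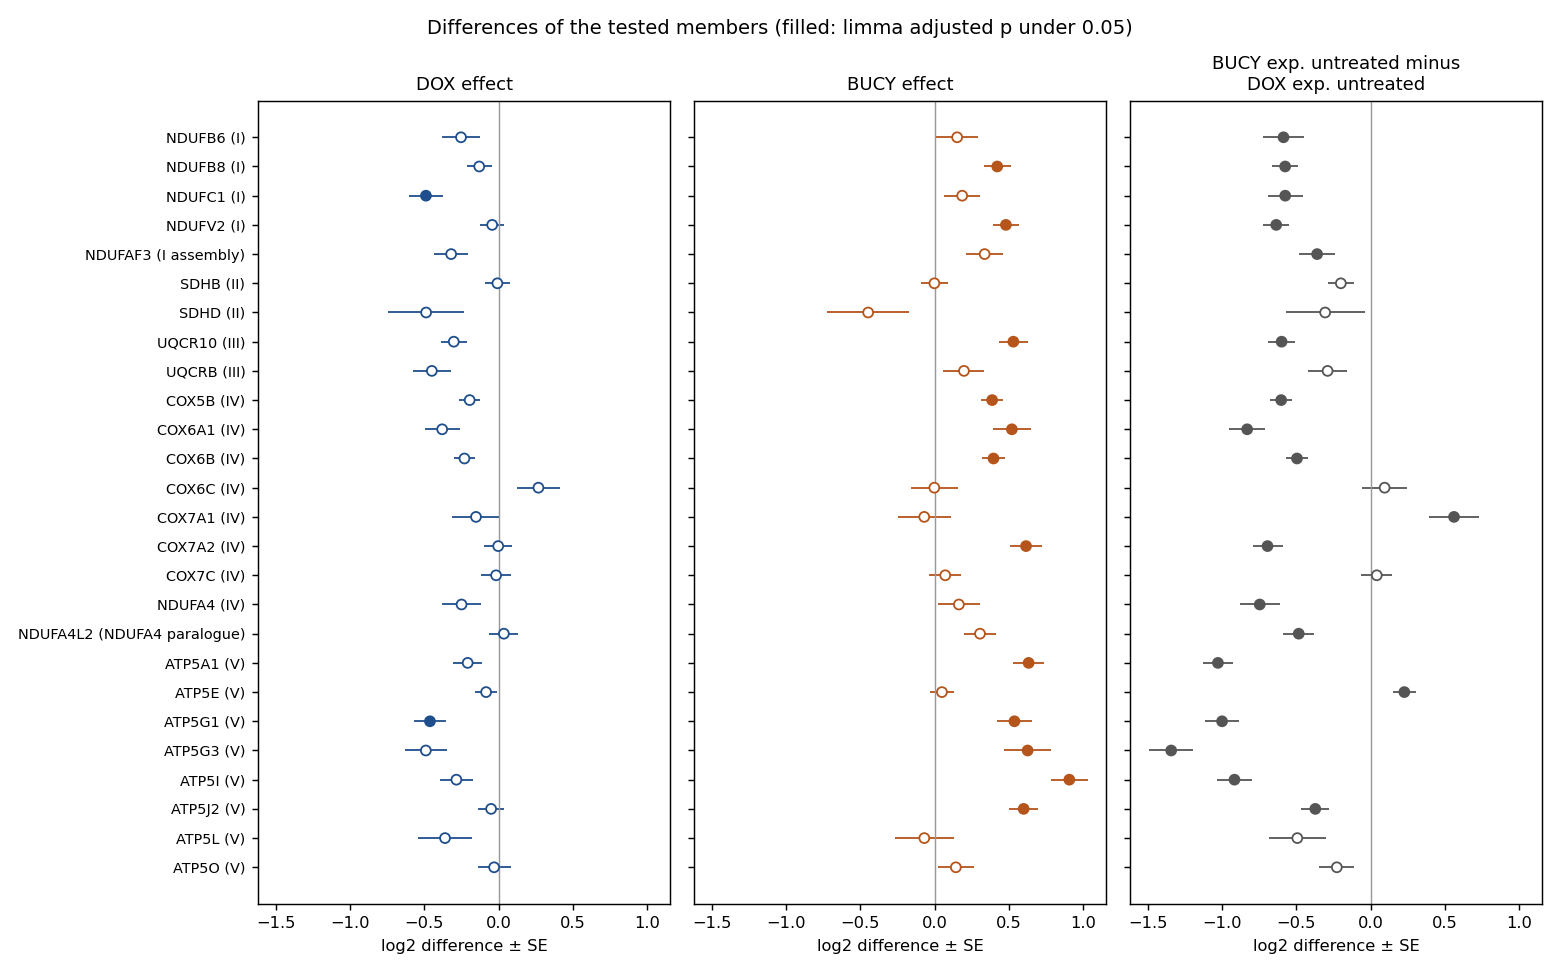
Log2 difference (x axis, ± SE) of each of the 26 tested members, ordered by complex, for DOX treated minus untreated (left), BUCY treated minus untreated (middle) and the untreated groups, BUCY experiment minus DOX experiment (right), in the deposited values. Filled points passed limma's adjusted p of 0.05: 2 members in the left panel, 12 in the middle and 19 on the right. The middle panel's direction turned for most members under median centring without loess.

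The direction of the BUCY result depended on how the arrays were normalised. Recentring the deposited values on the tested genes kept the same 12 calls, at a median of 0.33. With normexp and loess on the scanner intensities, the same 12 members rose, with a median of 0.29. Over all genes 18% and 17.3% passed in either direction under these settings, in that order. With each array only centred on its median, 24 of 26 members were lower after BUCY, 1 passed the threshold (COX7A1, lower), and the median was -0.30. Under that setting 13.1% of all tested genes passed in either direction. The median of all tested genes shifted by -0.12, so the members lay -0.18 below it. Leaving out BUCY-treated piglets 2 and 3 under the same centring, a setting chosen after the data were seen, put 23 of 26 members above 0 at a median of 0.26, with 0 past the threshold. On those values the members' median in BUCY-treated piglet 3 was -1.84, and in piglet 2 it was -0.61.

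**Figure D2:**
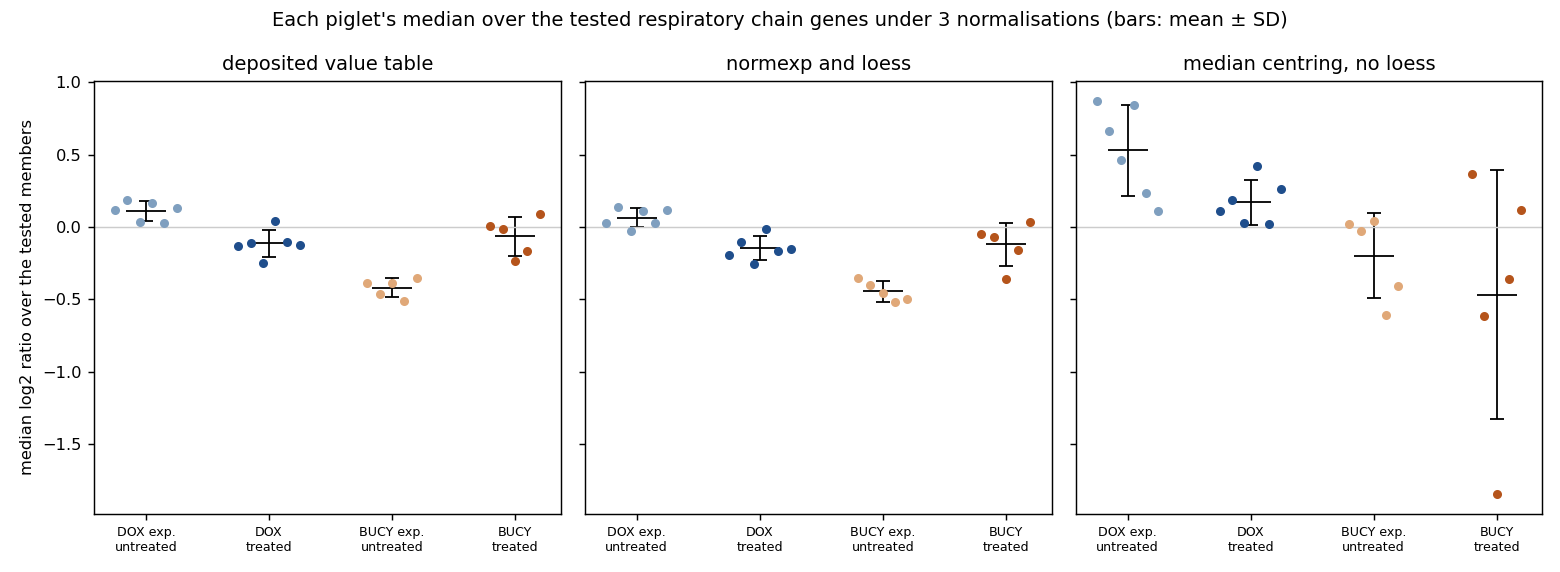
Median log2 ratio to the pool over the 26 tested members (y axis) in each piglet, by group, in the deposited table (left), after normexp and loess (middle) and after median centring alone (right); points are piglets and bars the group mean ± SD. In the left panel the untreated piglets of the BUCY experiment lie lowest, between -0.51 and -0.35. In the middle panel they lie between -0.52 and -0.35, and BUCY-treated piglet 3, at -0.36, falls within that range. In the right panel a single BUCY-treated piglet lies at -1.84 and the groups overlap widely.

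Complex V held the largest differences after BUCY. ATP5I encodes subunit e of the membrane part of ATP synthase, which takes part in the pairing of the enzyme into dimers. Its log2 ratios were -0.68, -0.74, -0.76, -0.65 and -0.60 in the 5 untreated piglets and -0.19, 0.45, 0.43, -0.02 and 0.43 in the 5 BUCY-treated ones. Every treated piglet lay above every untreated one, and the treated group was the more spread. The difference was 0.91 (SE 0.12), a 1.87-fold rise with an adjusted p of 1.01e-04 in limma, and it stayed above 0 under all 18 other settings, median centring included, where it was 0.31 and missed the threshold.

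ATP5J2, subunit f of the same membrane part, stood at -0.40, -0.54, -0.27, -0.18 and -0.24 in the untreated piglets. After BUCY it stood at 0.07, 0.41, 0.43, 0.12 and 0.33, again with no overlap. The rise was 1.51-fold (log2 0.60, SE 0.098, adjusted p 4.46e-04). ATP5A1, the alpha subunit of the catalytic head, ran from -0.82 to -0.46 without treatment (-0.82, -0.78, -0.54, -0.46 and -0.73) and from -0.17 to 0.22 with it (-0.08, -0.01, -0.17, -0.14 and 0.22). This was a 1.55-fold rise (log2 0.63, SE 0.11, adjusted p 5.41e-04). Of the 14 ATP5A1 probes, 12 were higher after BUCY, over a range of -0.03 to 0.91, and the mean over its probes missed the threshold.

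ATP5G1 and ATP5G3 encode the same mature protein, subunit c of the membrane-embedded rotor ring, with different import sequences. ATP5G1 was at -0.52, -0.74, -0.61, -0.75 and -0.46 in untreated piglets and at -0.18, 0.08, -0.31, -0.21 and 0.24 after BUCY. The groups did not overlap, and the rise was 1.45-fold (log2 0.54, SE 0.12, adjusted p 0.00427). ATP5G3 was at -1.13, -1.21, -0.72, -0.62 and -0.76 untreated and at -0.36, -0.30, -0.74, -0.20 and 0.29 after BUCY. Its groups overlapped through BUCY-treated piglet 3, at -0.74, and the rise was 1.54-fold (log2 0.63, SE 0.16, adjusted p 0.00975). The other 3 ATP synthase genes did not pass: ATP5O, which joins the head to the outer stalk, differed by 0.14, ATP5E, the small epsilon subunit, by 0.05 and ATP5L, the membrane subunit g, by -0.07. Their 95% intervals ran from -0.11 to 0.40, from -0.12 to 0.22 and from -0.48 to 0.34 in that order, so a rise of the size of that of ATP5I lay outside all of them.

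In complex IV, 4 of 8 tested members rose after BUCY in the deposited values and all 4 of these were lower under median centring. COX7A2, the form of subunit VIIa found in most tissues, was at -1.01, -0.79, -0.69, -0.65 and -0.41 untreated and at -0.13, 0.08, -0.18, -0.23 and -0.01 treated. The groups did not overlap, and the rise was 1.53-fold (log2 0.62, SE 0.11, adjusted p 6.39e-04). COX6A1, the non-muscle form of subunit VIa, was at -0.74, -0.62, -0.34, -0.61 and -0.47 untreated and at 0.36, -0.17, -0.39, -0.14 and 0.17 treated. BUCY-treated piglet 3 lay within the untreated range, and the rise was 1.43-fold (log2 0.52, SE 0.13, adjusted p 0.00893).

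COX6B, a subunit on the intermembrane side where cytochrome c docks, lay at -0.15, -0.29, -0.40, -0.26 and -0.19 untreated and at 0.15, 0.17, -0.01, 0.10 and 0.29 after BUCY. All treated piglets were above all untreated ones, with a 1.32-fold rise (log2 0.40, SE 0.080, adjusted p 0.00237). COX5B, a peripheral subunit, rose 1.31-fold (adjusted p 0.00189), also without overlap. The remaining 4 did not pass. COX7A1, the heart and skeletal muscle counterpart of COX7A2, differed by -0.07 (95% interval -0.44 to 0.30). COX6C, COX7C and NDUFA4, a protein named after complex I that is now counted with complex IV, differed by -0.00, 0.07 and 0.16. The NDUFA4 paralogue NDUFA4L2 differed by 0.31 and missed the threshold (adjusted p 0.0523).

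Complex III was represented by small subunits. UQCR10 was at -0.38, -0.47, -0.54, -0.69 and -0.51 in untreated piglets and at 0.06, 0.19, -0.16, -0.18 and 0.14 after BUCY, with no overlap. It rose 1.44-fold (log2 0.53, SE 0.096, adjusted p 0.00101). UQCRB, which lies near the ubiquinone site, differed by 0.20 and did not pass (adjusted p 0.335), with all 7 of its probes between 0.14 and 0.20.

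Of the 4 tested subunits of complex I, 2 rose after BUCY. NDUFB8, in the far membrane arm, was at -0.57, -0.62, -0.39, -0.56 and -0.37 untreated and at -0.15, 0.18, -0.25, -0.23 and 0.06 treated. Its groups did not overlap, and it rose 1.34-fold (log2 0.42, SE 0.091, adjusted p 0.00377). NDUFV2, an iron-sulphur subunit of the arm that oxidises NADH, rose 1.39-fold (log2 0.48, SE 0.090, adjusted p 0.00130), but the mean over its 5 probes missed the threshold. NDUFB6 and NDUFC1, both of the membrane arm, differed by 0.15 and 0.19 and did not pass. NDUFAF3, an assembly factor of complex I that the symbol rule also takes in, differed by 0.34 (adjusted p 0.0644).

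Complex II, the only one that also belongs to the citric acid cycle and has no subunit from mitochondrial DNA, showed no call after BUCY. SDHB, its iron-sulphur subunit, was at 0.01, -0.11, -0.25, -0.24 and -0.16 untreated and at 0.05, -0.27, -0.45, -0.15 and 0.06 treated. The treated values spanned the whole untreated range, and the difference was -0.00 with a 95% interval from -0.19 to 0.19. SDHD, a membrane anchor, differed by -0.45 with an interval from -1.02 to 0.13 (adjusted p 0.272). None of the 7 SDHB and 5 SDHD probes was higher after BUCY, and those of SDHB ran from -0.30 to -0.002, the brightest being nearest 0. Whether complex II differed from the other complexes was not tested.

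**Figure D3:**
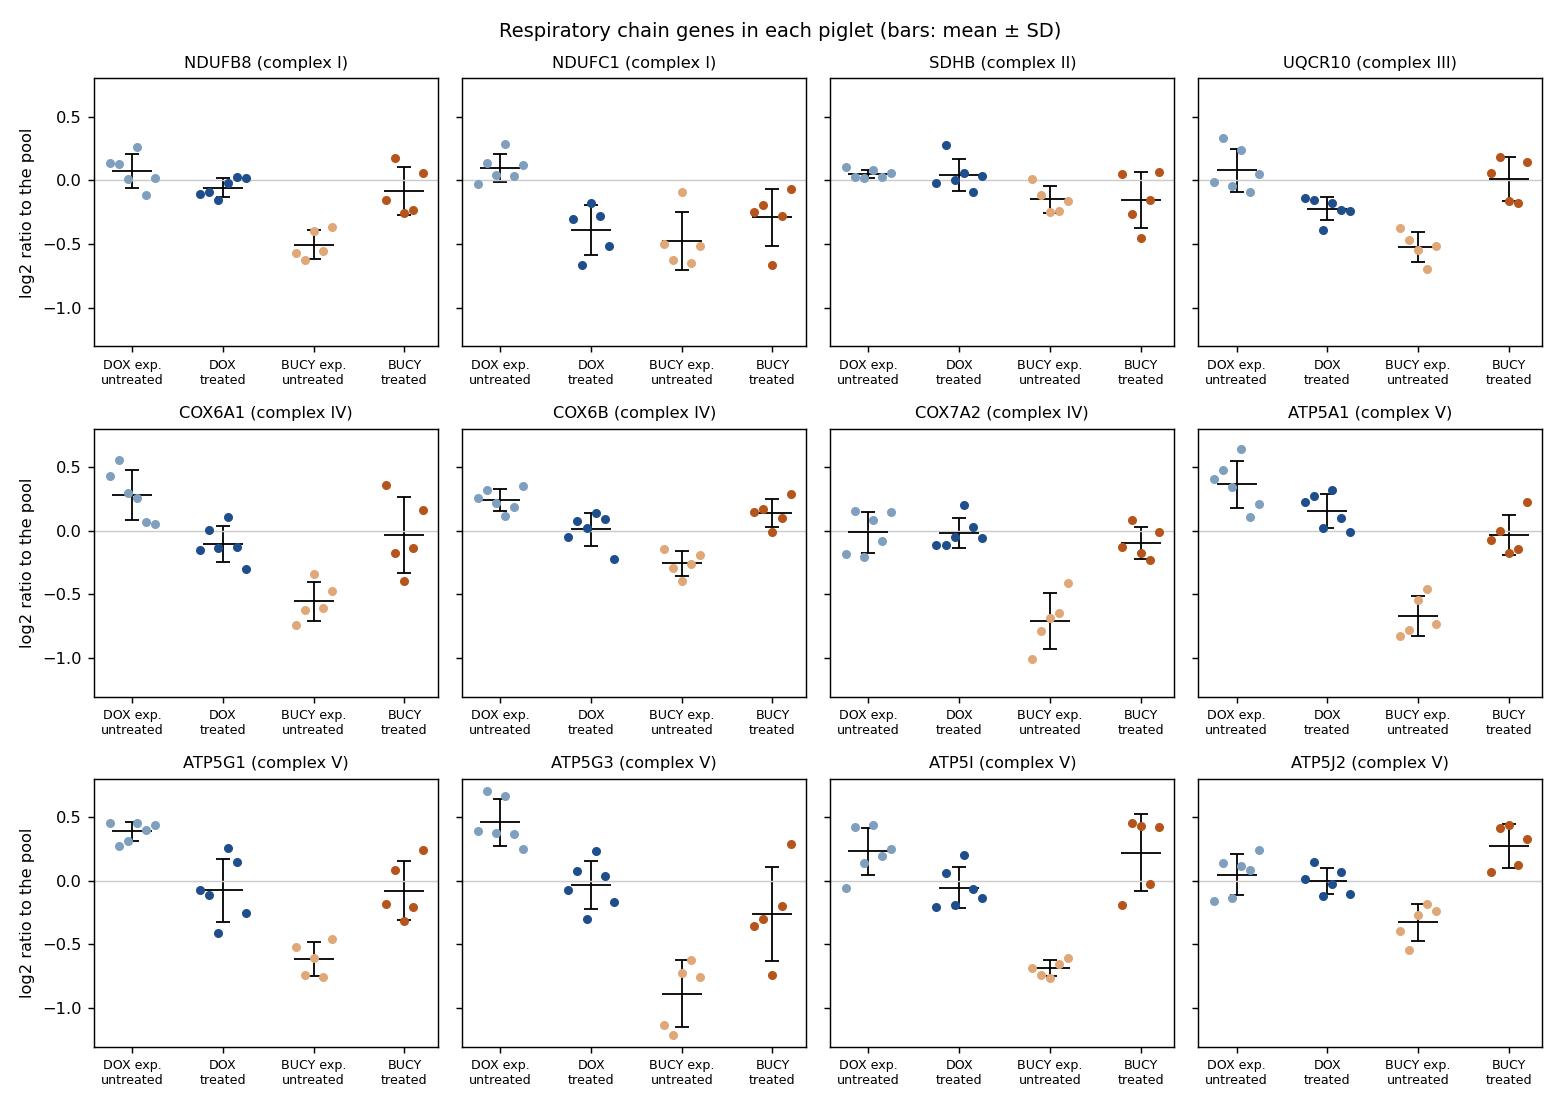
Log2 ratio to the pool (y axis) of 12 members in each piglet by group, with the group mean ± SD; these are the members with the smallest p in each treatment comparison and the brightest of each complex, in the deposited values. For ATP5I the 5 untreated piglets of the BUCY experiment lie between -0.76 and -0.60 and all BUCY-treated ones higher, whereas for SDHB these groups overlap.

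After DOX the members lay slightly lower. In the deposited values 24 of 26 members were below 0, 2 fell past the threshold and 0 rose, against 0.517% of all tested genes lower, 0.372% higher and 0.888% changed in either direction. The median member differed by -0.22, against 0.01 for all genes, and ranged from -0.49 to 0.27. At an unadjusted p under 0.05, 11 members were lower and 0 higher, where 6.3% of all genes were lower and 5.83% higher. The direction of the median held under every normalisation tried, at -0.21 after loess and -0.38 after median centring, but both calls were lost after loess and after median centring. Without BUCY-treated piglets 2 and 3, which enter here only through the shared estimate of spread, 3 members fell, with UQCRB added, where 1.97% of all genes passed in either direction.

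ATP5G1, one of the subunit c genes described above, ranged from 0.28 to 0.45 in the 6 untreated piglets of the DOX experiment, with a median of 0.42. In the 6 DOX-treated piglets it ranged from -0.41 to 0.26, with a median of -0.09. The highest treated piglet lay just under the lowest untreated one, and the fall was 1.38-fold (log2 -0.46, SE 0.11, adjusted p 0.0412). The call was lost on leaving out any of 10 single arrays, namely all 6 untreated piglets and DOX-treated piglets 1, 2, 3 and 6, over which the adjusted p reached 0.123.

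NDUFC1, a small membrane subunit of complex I, ranged from -0.03 to 0.29 in untreated piglets, with a median of 0.08. After DOX it ranged from -0.67 to -0.18, with a median of -0.30, in the 5 piglets with a usable spot, since that of DOX-treated piglet 2 was marked as an outlier and left out. The groups did not overlap, and the fall was 1.40-fold (log2 -0.49, SE 0.12, adjusted p 0.0491). It was lost in 18 of the 22 fits that each left out 1 array, with an adjusted p of up to 0.168.

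The groups did not overlap for 4 members after DOX, all of them lower: ATP5G1, ATP5G3, NDUFC1 and UQCR10, where 1.28% of all genes did so in that direction. ATP5G3 ranged from 0.25 to 0.70 untreated and from -0.30 to 0.24 treated, a difference of -0.49 (adjusted p 0.122). UQCR10 ranged from -0.09 to 0.34 untreated and from -0.39 to -0.14 treated, a difference of -0.30 (adjusted p 0.119). UQCRB differed by -0.45, with all 7 probes between -0.46 and -0.41, and an adjusted p of 0.105. COX6C, the cytochrome oxidase subunit VIc, was the highest member after DOX at 0.27 (adjusted p 0.475), with all 3 probes above 0. The other members that were lower at an unadjusted p under 0.05 without passing the adjusted threshold were COX6A1, COX6B, COX5B, NDUFAF3, ATP5I and ATP5A1, at -0.38 to -0.19.

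Some members that rose after BUCY sat close to 0 after DOX. COX7A2 ranged from -0.20 to 0.16 untreated and from -0.11 to 0.20 after DOX, a difference of -0.00 with a 95% interval from -0.20 to 0.20. For ATP5J2 the difference was -0.05 (interval -0.24 to 0.14) and for NDUFV2 it was -0.04 (interval -0.21 to 0.13). SDHB differed by -0.01 on its brightest probe (interval -0.18 to 0.17), while all 7 of its probes were lower, at -0.14 to -0.01.

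The difference between the treatment effects was tested itself, as the BUCY effect minus the DOX effect in one model. It was above 0 for 25 of 26 members, and 15 passed with 0 in the other direction, where 2.87% of all tested genes passed as higher, 2.56% as lower and 5.43% in either direction. At an unadjusted p under 0.05, 0 members lay below 0, where 10.5% of all genes did. The median was 0.57, against -0.00036 over all genes. ATP5I differed most, by 1.19 (SE 0.17, adjusted p 5.44e-04), followed by ATP5G3 at 1.12 and ATP5G1 at 0.999. The 12 members called after BUCY were all among the 15, which also held NDUFC1 at 0.67, NDUFAF3 at 0.66 and UQCRB at 0.65. The complex II genes showed a difference of 0.01 for SDHB (interval -0.25 to 0.27) and 0.04 for SDHD (interval -0.74 to 0.82). Under median centring without loess the median was 0.17 with 0 past the threshold. The same centring without BUCY-treated piglets 2 and 3 gave a median of 0.65, with 24 of 26 members above 0 and 0 past the threshold. In the deposited values without these piglets 14 of the 15 passed, NDUFAF3 being lost, where 2.66% of all genes passed in either direction. The UQCRB call was lost in 17 of 22 fits without 1 array.

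The untreated piglets of the experiments also differed from each other, although neither group had been treated. In the BUCY experiment 17 of 26 members were lower and 2 higher than in untreated piglets of the DOX experiment, against 10.9% and 12.2% of all tested genes and 23.1% in either direction. The median was -0.54, against 0.03 for all genes, and groups did not overlap for 18 members, all lower, against 8.67% of genes. The BUCY effect, the difference of effects and this comparison share the untreated BUCY piglets, so they are not independent of each other. Without BUCY-treated piglets 2 and 3, which again enter only through the shared estimate of spread, 21 members passed, while the share over all genes rose to 28%. This comparison kept its direction under median centring, with a median of -0.75 and 12 members past the threshold, all lower. Over all genes 15.5% passed there in either direction.

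ATP5G3 showed the largest difference between the untreated groups, from 0.25 to 0.70 in the DOX experiment against -1.21 to -0.62 in the BUCY experiment, a 2.54-fold gap (log2 -1.34, SE 0.15, adjusted p 1.49e-06). ATP5A1 followed, from 0.11 to 0.64 against -0.82 to -0.46, with a gap of 2.04-fold (adjusted p 3.76e-07). ATP5G1 differed by -1.001 and ATP5I by -0.92. In complex IV, COX6A1 differed by -0.83, NDUFA4 by -0.75 and COX7A2 by -0.69. All 4 subunits of complex I were lower, between -0.64 and -0.58. The members that were higher were COX7A1, the muscle-type subunit, at 0.56 (adjusted p 0.0212) and ATP5E at 0.23 (adjusted p 0.0407). Both of these calls were lost when single untreated piglets were left out, 2 of them for COX7A1 (piglets 1 and 5 of the BUCY experiment) and 7 for ATP5E (piglets 1, 2, 3 and 5 of the BUCY experiment and 1, 3 and 5 of the DOX experiment), with adjusted p up to 0.0623 and 0.113. The call of NDUFAF3, at -0.36, was lost without piglets 4 or 5 of the BUCY experiment or 1 or 3 of the DOX experiment, with an adjusted p up to 0.120.

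Set side by side in the deposited values, the piglets' medians over the 26 members placed the untreated piglets of the BUCY experiment apart. They lay between -0.51 and -0.35 there, between -0.23 and 0.09 after BUCY, between -0.25 and 0.04 after DOX and between 0.03 and 0.19 in the untreated piglets of the DOX experiment. After loess BUCY-treated piglet 3, at -0.36, lay within the range of the untreated piglets of its experiment, -0.52 to -0.35. In the deposited values, within single slides that held both groups, the members' median difference after BUCY was 0.37, 0.30 and 0.46 on 3 slides. It was -0.30, -0.11 and -0.24 after DOX on 3 slides, and -0.45 on each of 2 slides between the untreated groups. Each of these rests on 2 to 4 arrays. With slide as a fixed block, 12 members passed after BUCY and 2 after DOX, where 9.22% and 1.02% of all genes passed in either direction. These were not all the members called without the block. ATP5G3 was lost and NDUFAF3 gained after BUCY, and after DOX ATP5G1 was lost and UQCRB gained. The same block left 13 calls in the difference of effects, without ATP5J2 and COX7A2, and 17 between the untreated groups, without ATP5E and COX7A1. Over all genes 3.78% and 17.1% passed there in either direction. With scan day as a block, 15 members passed after BUCY, the 12 with NDUFA4L2, NDUFAF3 and UQCRB added. After DOX 2 passed, where NDUFC1 was lost and UQCRB gained. Over all genes 18.3% passed after BUCY and 0.909% after DOX in either direction.

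Members also varied together among piglets of a group. Over the 22 arrays, after subtraction of group means, the median correlation over all pairs of members was 0.29, with a range from -0.55 to 0.87, and between members and all other genes it was -0.01. These points share arrays and their normalisation, so the values are a description. The closest pair was NDUFV2 and UQCRB at 0.87. NDUFB6 had the highest median correlation with the other members, 0.48, whereas COX7A1 had the lowest, -0.20, and NDUFA4L2 stood at -0.06. The members are bright on this array. The 852 tested genes within the middle span of their Cy5 signal, some members included, had medians of 0.15 after BUCY and 0.08 after DOX. The members had 0.32 and -0.22.

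Outside the symbol rule, cytochrome c itself moved with the chain. CYCS, the soluble carrier between complexes III and IV and a trigger of apoptosis when released, rose after BUCY by 0.67 (adjusted p 0.00793) and fell after DOX by 0.92 (adjusted p 0.00149). It ranged from 0.17 to 0.57 in untreated piglets of the DOX experiment and from -0.89 to 0.15 after DOX, with no overlap. In the BUCY experiment it ranged from -1.15 to -0.63 untreated and from -0.53 to 0.02 treated, also with no overlap. The difference of effects was 1.58 (adjusted p 5.27e-04). The fall after DOX passed in every fit without 1 array and in 17 of 18 other settings, missing the threshold under median centring at -1.14. The rise after BUCY was 0.12 under median centring and passed in 15 of 18 settings. COX10, PET100 and TACO1, which serve the assembly or translation of complex IV, did not pass after either treatment.

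The mitochondrial chaperonin followed the same order after DOX. HSPD1, which folds imported proteins, ranged from 0.24 to 1.09 in untreated piglets and from -0.96 to 0.06 after DOX, with no overlap. It fell by 1.08 (adjusted p 0.00675), while the BUCY difference of 0.44 did not pass (adjusted p 0.164). Its partner HSPE1 fell after DOX by 0.73 (adjusted p 0.0242), a call lost in 7 of 22 fits without 1 array. The 7 were those without untreated piglets 1, 2 and 6 and without DOX-treated piglets 1, 2, 3 and 6 of that experiment. HSPE1 rose after BUCY by 0.63 (adjusted p 0.0157), a value that was -0.06 under median centring. That call was also lost without BUCY-treated piglet 2 (adjusted p 0.0532) and without piglets 2 and 3 together. Of the 4 import genes and chaperones tested, these were the only calls, TOMM7 and TRAP1 not passing after either treatment.

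Regulators of mitochondrial genes moved in opposite directions. PPARGC1A, the coactivator PGC-1 alpha that drives mitochondrial biogenesis, ranged from 0.28 to 1.64 in untreated piglets of the BUCY experiment and from -1.08 to 0.17 after BUCY. No treated piglet reached the untreated range, and the fall was 2.83-fold (adjusted p 6.33e-04), past the threshold in all 18 other settings. After DOX it fell by 0.98 (adjusted p 0.0469), a call lost in 14 of 22 fits without 1 array, with an adjusted p of up to 0.138. The difference of effects for PPARGC1A, -0.52, did not pass (adjusted p 0.452).

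TFAM, which packages and transcribes mitochondrial DNA, rose after BUCY by 0.71 (adjusted p 0.00291). Its 5 untreated piglets ran from -1.02 to -0.45 and the treated ones from -0.35 to 0.38, so the groups did not overlap. TFB1M, a methyltransferase of mitochondrial ribosomal RNA, rose by 0.56 (adjusted p 0.00114). After DOX neither passed, at -0.34 and -0.02. Both stayed above 0 after BUCY under median centring, at 0.22 and 0.07, without passing. Both calls were also lost without the arrays that carry a suffix in their title. Of the 7 regulators tested, PPARA, PPARD, SIRT1 and SIRT3 did not pass after either treatment.

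**Figure D4:**
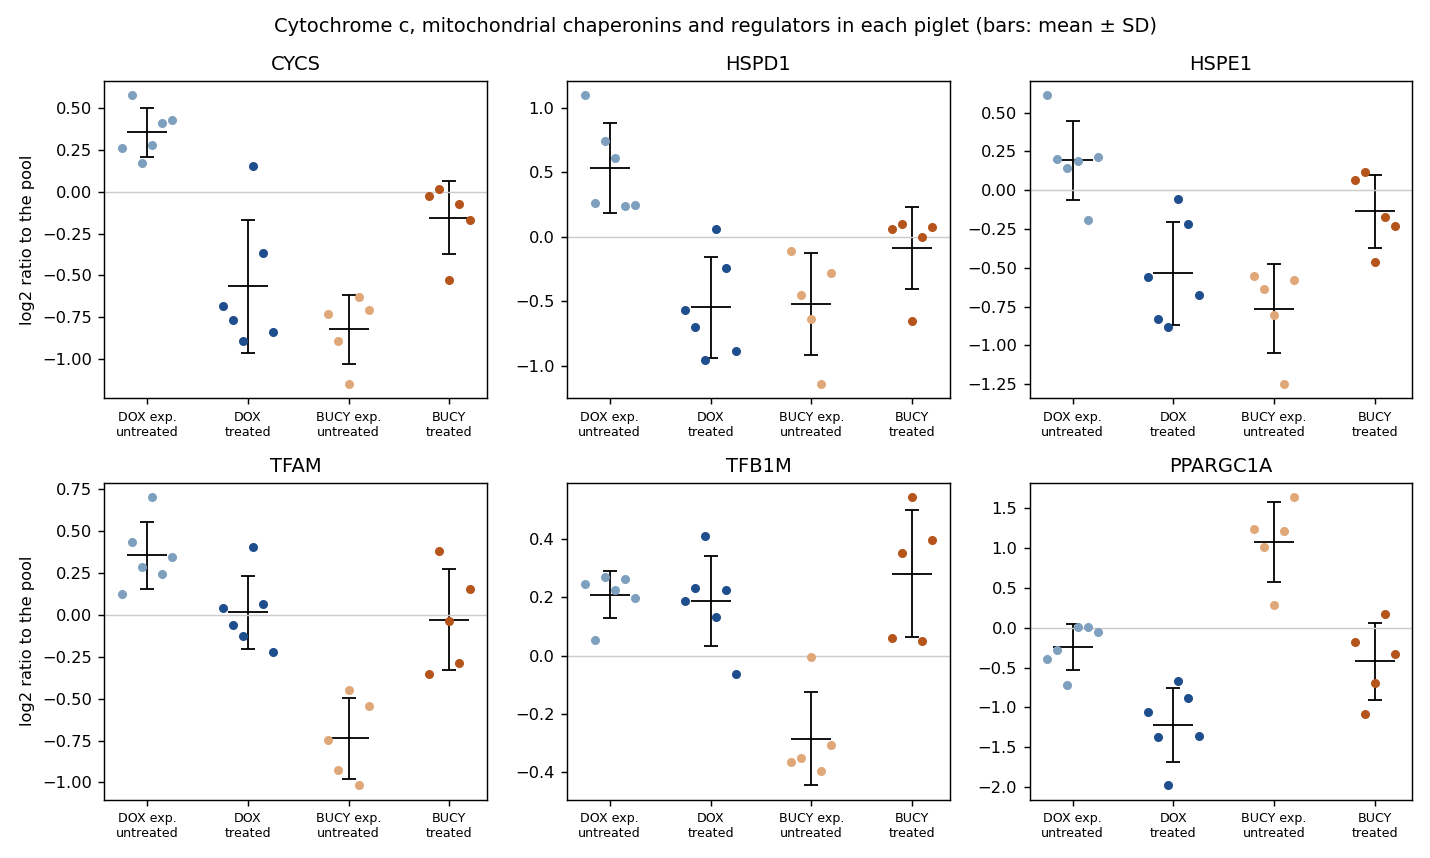
Log2 ratio to the pool (y axis, a separate scale in each panel) of cytochrome c (CYCS), the chaperonins HSPD1 and HSPE1 and the regulators TFAM, TFB1M and PPARGC1A in each piglet by group, with the group mean ± SD, in the deposited values. PPARGC1A is highest in the untreated piglets of the BUCY experiment, between 0.28 and 1.64, where TFAM is lowest. CYCS has its lowest mean there too, but the DOX-treated piglets, at -0.89 to 0.15, overlap this group. The BUCY differences of HSPD1 and HSPE1 are below 0 under median centring without loess.

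Among other mitochondrial and energy genes, calls after BUCY went both ways, as they did over all tested genes, of which 8.72% rose and 9.26% fell. In the citric acid cycle and pyruvate entry, 4 of 11 genes rose and 2 fell, with IDH2, a dehydrogenase that yields NADPH, at 0.77, CS, the citrate synthase at the entry of the cycle, at -0.75 and IDH3B at 0.28. In fatty acid oxidation 1 of 15 rose, CPT1A, the gate of fatty acid entry, at 0.85, and 2 fell, DECR1 at -1.03 and HADH at -0.94, which is near the share over all genes. Of 9 carriers and pores 2 rose, among them the outer membrane channel VDAC1 at 0.57. The other 3 calls there were lower, with the uncoupling protein UCP3 at -1.76. None of these 3 lists held a call after DOX. The IDH3B value was -0.25 under median centring, whereas the others named kept their sign.

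Of 8 mitochondrial ribosome and translation genes 4 rose after BUCY and 0 fell, at a list median of 0.35, with MRPL24 at 0.55, MRPL58 at 0.63 and MRPL2 at 0.40, of which MRPL2 was -0.07 under median centring. Of 6 antioxidant enzymes GPX4 (0.54), TXNRD2 (0.47) and 1 more rose and catalase, CAT, fell by 1.14, and TXNRD2 was -0.06 under median centring. In glycolysis, which makes ATP without oxygen, 6 of 13 rose and 0 fell, with GAPDH at 0.82, GPI at 0.61 (1 BUCY-treated piglet had no usable spot) and PGK1 at 0.39. PGK1 was -0.17 under median centring. After DOX these 3 lists held 0 calls in limma. Without BUCY-treated piglets 2 and 3 the calls of CAT, DECR1, HADH, IDH3B, VDAC1, MRPL58 and TXNRD2 were lost, as was that of HSPE1. Single arrays decided some of them: CAT and VDAC1 were lost without BUCY-treated piglet 2 (adjusted p 0.0557 and 0.0579), HADH without piglet 2 or 3 (up to 0.0547) and IDH3B without piglet 2 or untreated piglet 1 (up to 0.0561). MRPL2 was lost without untreated piglets 1, 2 or 3 or BUCY-treated piglets 4 or 5 (up to 0.0655). When the fit held only the groups compared, the calls lost without piglets 2 and 3 were lost too. CS, GPX4, MRPL2, MRPL24, PGK1 and UCP3 were lost there as well. Without the arrays with a suffix in their title the calls lost without piglets 2 and 3 were again lost, with GPI, MRPL2, MRPL24, PGK1 and UCP3. No subunit encoded by mitochondrial DNA was among the named probes.

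Markers of cell types moved beside these results, and their part in them was not tested. For the marker counts here and below, 8.72% of all tested genes rose after BUCY and 9.26% fell. After DOX 0.372% rose and 0.517% fell. Of 7 crypt and proliferation markers 5 rose after BUCY, led by BIRC5 at 1.75 and CCNB1 at 1.74, and 0 passed after DOX. Their mean level per piglet ranged from -1.55 to -0.87 in untreated piglets of the BUCY experiment, from -0.62 to 0.41 after BUCY, from -0.34 to 0.33 after DOX and from 0.15 to 0.79 in untreated piglets of the DOX experiment. The untreated piglets of the BUCY experiment were thus lowest in both this list and the respiratory chain. Of 11 enterocyte markers 6 fell after BUCY, with TMPRSS15 at -2.11 and DPP4 at -1.61, while the other 5 lay above 0 without passing. Levels ran from -2.19 to 0.47 against -0.16 to 0.47 untreated. After DOX 1 of the 11 fell, with levels of -0.70 to 0.02 against -0.63 to 0.58.

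Of 13 T and NK cell markers 11 fell after BUCY, led by CCL5 at -2.31 and CD3E at -1.42, and 3 after DOX. Levels of this list ran from -1.49 to -1.08 after BUCY and from -0.26 to 0.49 in its untreated group. Of 4 macrophage markers CD163 (1.49) and CD14 (0.82) rose after BUCY and 1 fell, and 2 rose after DOX. Levels ran from -0.49 to 0.25 after BUCY against -1.10 to -0.41, and from -0.03 to 0.72 after DOX against -0.46 to 0.18. Of 6 smooth muscle markers 1 rose after BUCY, DES at 0.96, with levels of 0.28 to 1.41 against -0.24 to 0.45. Of 2 goblet cell markers SPINK4 fell after BUCY (-1.03), and the single B cell marker tested, CD79A, fell after DOX (-0.75). Of 4 neutrophil markers RETN fell after both treatments, while the other 3 lay above 0 after each without passing. The neutrophil list median was 0.34 after DOX and 0.20 after BUCY.

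None of 6 general epithelial markers passed after either treatment. Nor did the 5 tested of 8 markers of skeletal or heart muscle, the tissues known for the isoforms COX7A1 and COX8H, or the red blood cell marker HBE1. MYL2, of heart and slow muscle, was above background on 0 arrays, TNNT3 on 3 and MYH2 on 4. The B cell marker MS4A1 was above background on 3 arrays and was not tested.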

How the data were processed

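RNA of 22 piglets was hybridised to 22 two-colour Agilent arrays, piglet RNA in Cy5 and the pool in Cy3 per the labels. The authors deposited scanner files with intensity values and a log10 ratio per spot, made with Agilent Feature Extraction 10.7.3.1 per the file headers, and a value table. The submitters' processing notes also name limma. The normalisation of the deposited table is not given in the sources used here. Set against the scanner intensities it held log2 ratios of Cy5 over Cy3, with correlations of 0.995 to 1.00 and slopes of 0.993 to 1.01 on loess followed by quantile values, and column medians of 0.00146 to 0.0180. Its exact steps and centring remain unknown.

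The deposited log2 ratios were the main values, as the rule for the members states. Control spots and spots flagged as outliers (3 to 52 per array) were left out. Genes entered the test where the brightest probe's Cy5 signal was well above background on 5 or more arrays. Probes were named through pig gene tables, which gave a symbol to 15.4% of probes, and 2653 of the 24761 tested genes had one. One limma model (3.58.1, R 4.3.3) with 4 group means and 18 residual degrees of freedom gave two-sided tests, Benjamini-Hochberg adjusted over all tested genes at 0.05, so that groups share one estimate of spread. Fits were tested on simulated data. Alternatives used normexp (offset 50) with loess, median centring or scaling, the deposited log10 ratio turned to log2, Cy5 alone, other filters, probe means, slide and scan day as blocks, fewer samples, and other limma settings. Figures were drawn with matplotlib 3.10.9.

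Members and gene lists were chosen with earlier results of these data known. Piglet values are given for up to 5 members past the threshold per treatment comparison and direction by smallest p, and the brightest tested member of each complex. From each pathway list up to 3 genes past the threshold after BUCY or DOX are named, and up to 2 markers per list; a few genes of these lists are not reported here. The replicate is the piglet, numbered in array order. For arrays, the number of piglets limits the precision.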

Additional observations from a re-analysis of the deposited data

Results flagged for a closer look

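For 11 of the members named with piglet values, the BUCY effect and the DOX effect differed in the test of that difference itself (limma, adjusted p between 5.44e-04 and 0.0231). In complex V the differences, BUCY effect minus DOX effect, were 1.19 for ATP5I, 1.12 for ATP5G3, 0.999 for ATP5G1, 0.84 for ATP5A1 and 0.65 for ATP5J2. In complex IV they were 0.90 for COX6A1, 0.63 for COX6B and 0.62 for COX7A2, in complex III 0.83 for UQCR10, and in complex I 0.67 for NDUFC1 and 0.55 for NDUFB8. The untreated groups of the experiments differ for all 11 of these genes as well.

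NDUFC1 in untreated piglet 3 of the BUCY experiment stood at -0.089, with the nearest of the other 4 at -0.50. This gap took up 0.737 of the group's range, above Dixon's limit for 5 samples. Of 48 groups of values examined this was the only one so marked, and chance marks about 1 in 20.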

How the results depend on the processing

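In DOX, the count of 2 members past the threshold became 0 with loess, median centring (with or without BUCY-treated arrays 2 and 3), the Agilent log ratio, Cy5 alone, probes above background on all arrays, and leaving out the suffixed arrays, those with a suffix in their title. It was 1 without the filter on dim probes and with an intensity trend and robust prior. With single arrays left out it was 0 to 3, where 120 to 313 of the 24761 tested genes passed. It was 7 with array weights, and 4 when the fit held just the 2 groups in question or used scaling between arrays. Over all genes, 4.54%, 2.99% and 2.75% passed in either direction there, in that order, against 0.888% in the main fit. Under median centring the BUCY count of 12 became 1, the count of 15 for the difference of effects 0 and that of 19 between untreated groups 12. In the added setting without arrays 2 and 3 the first 2 of these were 0. Under median centring of all arrays 13.1% of all genes passed after BUCY, 0.42% for the difference of effects and 15.5% between untreated groups. The difference of effects gave 9 with Cy5 alone, where 3.05% of all genes passed in either direction. Median centring moved the member median to -0.38 in DOX and -0.75 between untreated groups, both also without arrays 2 and 3. In BUCY it moved to -0.30, and to 0.26 without these arrays. For the difference of effects it moved to 0.17, and to 0.65 without these arrays.

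BUCY differences that changed sign under median centring were ATP5A1 -0.068, ATP5G1 -0.14, ATP5G3 -0.16, ATP5J2 -0.036, COX6A1 -0.25, COX6B -0.25, COX7A2 -0.071, NDUFB8 -0.16, UQCR10 -0.087, COX5B -0.37 and NDUFV2 -0.075, which leaves ATP5I as the exception among the 12 called members. The cause was not tested. With single arrays left out the counts were 12 to 14 after BUCY. They were 14 to 15 for the difference of effects and 16 to 20 between untreated groups. Of the 24761 tested genes 2314 to 6638, 836 to 2331 and 4768 to 6411 passed there, in that order. The medians were -0.25 to -0.18 in DOX and 0.26 to 0.38 in BUCY. For the difference of effects and between untreated groups they were 0.53 to 0.60 and -0.58 to -0.51. Median centring leaves the brightness-dependent dye trend in place, and depth enters only as signal over background. No paired analysis was possible because the replicate numbers follow array order and the labels pair no piglets. Naming probes by a gene name column was not run, since the scanner files used have none. The count of members in the difference of effects has no setting with fewer groups.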

Other observations

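Over single probes in place of 1 probe per gene, 97 of the 99 member probes passed the filter. Of these, 89 were lower after DOX, 74 higher after BUCY and 88 lower in the untreated piglets of the BUCY experiment than in those of the DOX experiment, with medians of -0.18, 0.18 and -0.54. Probes of a gene share its RNA and are no replicates. The genes with many probes mostly kept 1 direction: all 10 ATP5O probes were lower after DOX, at -0.23 to -0.02, while 8 of 10 were higher after BUCY, at -0.24 to 0.19. All 6 NDUFA4 probes were lower in the untreated BUCY piglets, at -0.82 to -0.64, as were all 5 COX6A1 probes, at -0.83 to -0.56. The 3 COX6C probes lay above 0 both between the untreated groups, at 0.09 to 0.13, and after DOX, at 0.26 to 0.29.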
